A study of Mus musculus with 3 samples.

Results

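The killer lectin-like receptors are described here as they were measured in mouse thymocytes of 3 genotypes. Every probe set of the deposited table was taken whose annotated symbols include a gene of the series Klra to Klrk. This gave 27 rows of 20738 annotated rows, where a row is a gene or a probe set shared by several genes. The 27 rows carry 32 gene symbols: 23 rows name 1 gene and 4 rows are shared by several Ly49 genes. The shared rows are called shared sets 1 to 4, and signal in one cannot be assigned to one of its genes.

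The series holds whole-transcript array data from total RNA of primary thymocytes, the T cell precursors of the thymus, with 1 array per genotype. The mice were WT at 12 weeks of age, β-catenin transgenic at 16 weeks and TCF-1-/- at 8 weeks, which lack TCF-1. TCF-1 is a transcription factor of the Wnt pathway and a partner of β-catenin. The study set loss of TCF-1 and gain of β-catenin against wild type. The labels give no strain, no sort of the cells and no promoter for the transgene. No genotype was measured more than once, so values carry no error, no test can be made and no difference can be checked in a replicate. Values are the deposited log2 values of a probe set, and a difference is one array minus another on that scale. The rule of size used throughout is a difference of 1 or more, which is 2-fold.

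Killer lectin-like receptors are C-type lectin-like proteins of the cell surface, best known from natural killer (NK) cells and also carried by subsets of T cells. Most of their genes lie together in the NK gene complex. The Ly49 receptors, encoded by the Klra genes, bind MHC class I molecules. Inhibitory members signal through the phosphatase SHP-1, and activating members through the adaptor DAP12. NKG2A, paired with CD94, reads the non-classical class I molecule Qa-1, NKG2D reads stress-induced ligands, and some NKR-P1 receptors read Clec2 lectins. TCF-1 is known to take part in the acquisition of the Ly49A receptor by NK cells.

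Because the Ly49 genes are close copies, their promoters are shown first. The promoter windows run from 250 bases before to 50 bases after each start in RefSeq, build GRCm38.p6, and 11 Ly49 genes have one. Of these, 9 hold a like stretch of which 40 bases follow. The letters by which it was found were chosen after the sequences were seen. It is printed on the gene's strand, which is the minus strand of the build for all 9. The motif searched was CTTTG followed by 2 bases that are each A or T, which gives 4 forms of 7 bases and is a short form of what TCF-1 and its relatives are known to bind. Capitals mark the 7 bases at the place where Klra6, Klra7 and Klra9 hold a match.
Klra3 (Ly49C), chr6:130337610-130337649: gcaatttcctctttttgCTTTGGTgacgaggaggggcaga
Klra9 (Ly49I), chr6:130193115-130193154: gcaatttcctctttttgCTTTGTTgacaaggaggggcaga
Klra6 (Ly49F), chr6:130027038-130027077: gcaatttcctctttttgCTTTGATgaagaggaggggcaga
Klra7 (Ly49G), chr6:130233376-130233415: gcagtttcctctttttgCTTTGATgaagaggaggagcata
Klra5 (Ly49E), chr6:129913279-129913318: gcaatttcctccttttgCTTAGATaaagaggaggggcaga
Klra2 (Ly49B), chr6:131247398-131247437: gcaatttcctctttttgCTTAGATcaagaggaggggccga
Klra4 (Ly49D), chr6:130067315-130067354: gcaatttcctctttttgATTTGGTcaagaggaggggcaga
Klra8 (Ly49H), chr6:130129943-130129982: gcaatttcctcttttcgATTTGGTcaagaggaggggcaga
Klra17 (Ly49Q), chr6:129876711-129876750: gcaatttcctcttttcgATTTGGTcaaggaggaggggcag

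Read place by place with no gaps, Klra6 and Klra9 each equal Klra3 at 38 of the 40 bases, Klra4 at 37, Klra8 at 36, and Klra5, Klra2 and Klra7 at 35. Klra17 equals it at 28, and beside Klra8 it has 1 extra g after the capitals that puts later letters out of step. At the capital letters, Klra3, Klra5 and Klra2 differ from the nearest searched form by 1 base and Klra4, Klra8 and Klra17 by 2. How often other windows hold letters that close to a searched form was not counted. Of all 32851 windows of this length in the table, 16.9% hold at least 1 of the 4 forms on either strand, and so do 7 of the 29 windows of the receptor genes (24.1%). Those 7 belong to Klra6, Klra7 with both of its windows, Klra9, Klrc1, Klrb1a and Klrb1f. A match is a description of letters in a window, and a window without one says only that these letters are not in it.

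**Figure D1:**
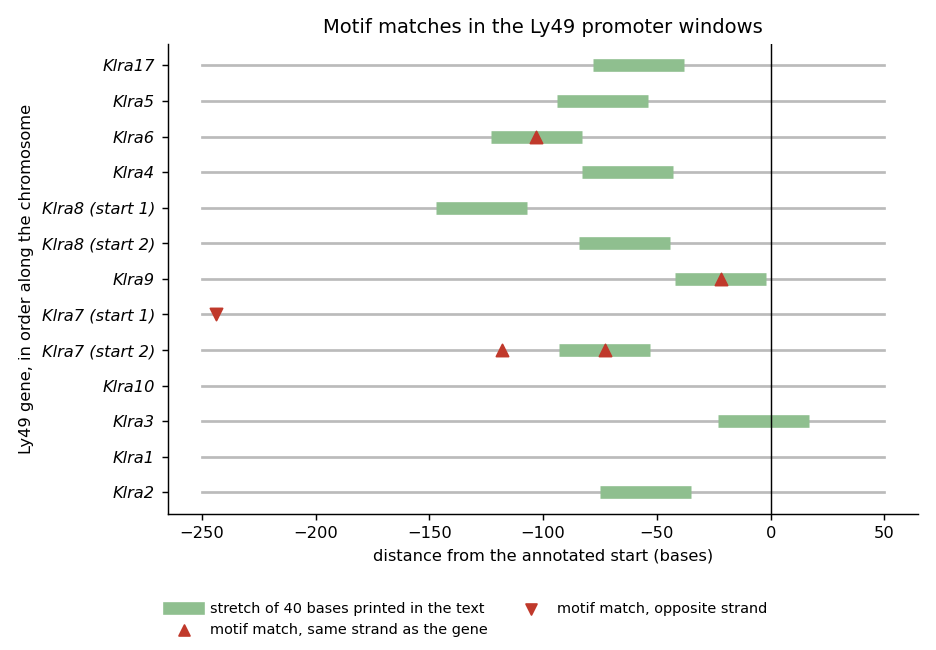
Promoter windows of 11 Ly49 genes (grey lines, 2 each for Klra7 and Klra8), with the distance from the annotated start in bases on the x axis. Green bars are the 40-base stretches printed in the text, and red triangles are matches to the searched forms on either strand. The matches of Klra6 and Klra9 and 1 of the 2 at the second start of Klra7 lie inside the like stretch, and Klra10 and Klra1 have neither stretch nor match in their windows.

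The Ly49 rows held the largest differences of the family. On the TCF-1-/- array all 4 rows that list Klra3, the inhibitory receptor Ly49C, were below their wild type values by 4.79-fold to 6.72-fold. On the transgenic array the same 4 rows were within 2-fold of wild type. Without TCF-1 they were below the median level over annotated rows (6.89), so the sizes of these folds are uncertain. Of the 27 receptor rows, 5 were lower and 1 was higher by 2-fold or more without TCF-1. Over all annotated rows 2.68% were lower and 1.34% higher by that rule. The 4 rows that list Klra3 overlap in what they measure, and averaged to 1 row they leave 2 lower rows of 24 (8.33%).

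The row that names Klra3 alone had values of 7.37 in wild type, 7.36 with the transgene and 5.12 without TCF-1. The wild type and transgenic arrays were thus alike, and the TCF-1-/- array was lower, with a difference of -2.26. Shared set 2 names Klra14-ps, Klra9, Klra8, Klra6, Klra5, Klra3 and Klra10. It was at 7.50 on the wild type, 7.12 on the transgenic and 4.75 on the TCF-1-/- array. Its difference of -2.75 without TCF-1 was the lowest of the family, and the transgenic array differed from wild type by -0.38. Besides Ly49C this set names Ly49I (Klra9) and Ly49J (Klra10), receptors of the inhibitory kind, Ly49H (Klra8), an activating receptor known for recognising a protein of mouse cytomegalovirus, and the pseudogene Klra14-ps.

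Shared set 3 names Klra14-ps, Klra9, Klra8, Klra3 and Klra10, and was at 7.31, 7.01 and 4.74 on the wild type, transgenic and TCF-1-/- arrays. Shared set 4 names Klra9, Klra5 and Klra3, and was at 7.38, 6.85 and 5.04 in the same order. Both were low on the same array as the Klra3 row, with differences of -2.57 and -2.35 on the TCF-1-/- array. Set 4 also had the largest difference of any receptor row on the transgenic array (-0.54). Averaged, the 4 rows were at 7.39 on the wild type, 7.08 on the transgenic and 4.91 on the TCF-1-/- array, a difference of -2.48 (5.58-fold lower) without TCF-1. In each of the 4 rows the values ran in the order wild type, transgenic, TCF-1-/-. For Klra3 the first step was -0.0144, and it turned to 0.06 with each array centred on its median over all probe sets.

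How far these 4 rows repeat one signal was read from the accessions that the annotation lists for each probe set. Shared sets 2 and 3 have 14 accessions in common, of 20 listed for each, and 20 is the most the annotation lists for any probe set. The Klra3 row has 3 of its 6 in common with each of those sets and none in common with set 4. Set 4 has 8 in common with set 2, 3 with set 3 and 6 with the row that names Klra5 alone. Of the transcripts listed for set 4, those found in RefSeq belong to Klra5 and Klra9, although the set also names Klra3. In the same way none listed for set 2 belongs to Klra5 or Klra6, and none listed for set 3 to Klra9. The lists of sets 2 and 3 are at the limit of 20, so they may be incomplete. The rows are therefore not independent measurements, and probes of one may bind transcripts of another.

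Some genes of these shared sets also have a row of their own. Klra8 alone was at 4.09 and Klra5 alone, Ly49E, at 4.20, each with the same value on all 3 arrays. Klra6 alone, the inhibitory receptor Ly49F, was at 5.36 on the wild type, 5.74 on the transgenic and 4.55 on the TCF-1-/- array. Klra6 was thus highest on the transgenic array and lowest without TCF-1, by -0.80 against wild type (1.75-fold lower). Between the mutants Klra6 differed by more than 2-fold (difference 1.19). Klra6 did not reach the median level over annotated rows on any array, so these folds are uncertain. Klra9, Klra10 and Klra14-ps have no row of their own, and each row that names them also names Klra3, so their signal cannot be assigned. Among the Klr genes in RefSeq order, Klra8, Klra14-ps, Klra9, Klra7, Klra10, Klra13-ps and Klra3 follow each other.

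The remaining Ly49 rows did not differ between arrays. Shared set 1 names Klra23, Klra16, Klra7, Klra4, Klra13-ps and Klra1, so it is annotated to the Ly49A, Ly49D and Ly49G genes. It was at 4.37 on all 3 arrays. Of its listed transcripts, those found in RefSeq belong to Klra1, Klra13-ps and Klra7 and not to Klra4 (Ly49D). Klra17, encoding Ly49Q, a receptor of plasmacytoid dendritic and myeloid cells, was at 4.05 on each, and Klra2, encoding Ly49B, a receptor of myeloid cells, at 4.03. Values equal to the last printed digit are common in this table: 33.8% of all annotated rows and 10 of the 27 receptor rows (37.0%) have them on all 3 arrays. An equal value is therefore not a measured equality. These 10 rows lie between 3.10 and 5.01, all below the median level over annotated rows (6.89).

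**Figure D2:**
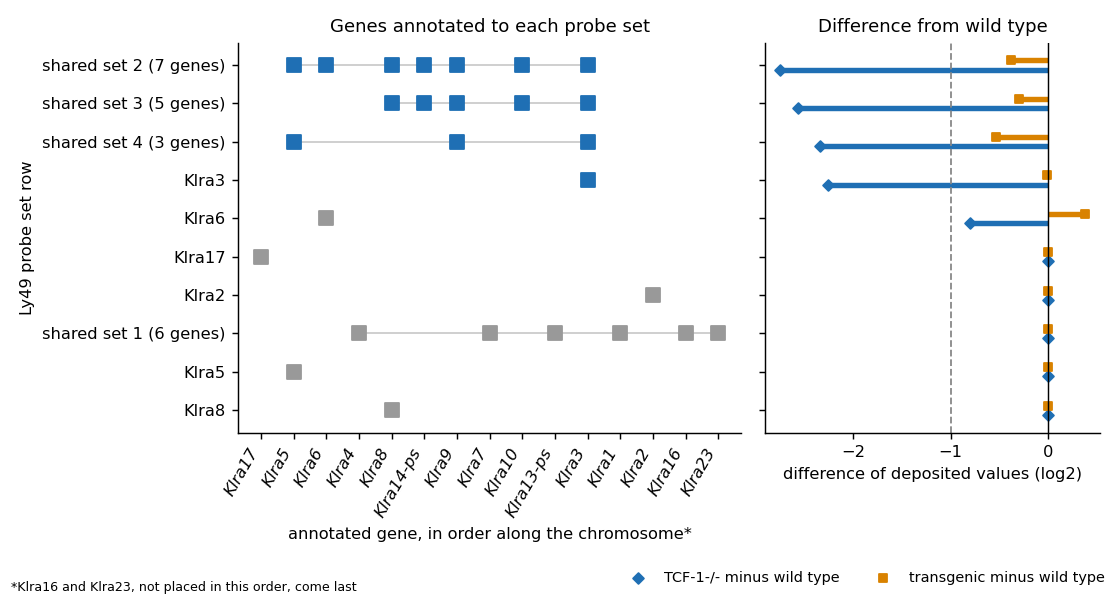
Left, the genes annotated to each of the 10 Ly49 probe set rows (squares, joined by a line within a row), with rows lower by 2-fold or more on the TCF-1-/- array in blue. Right, the difference of each row from wild type in log2 units for the TCF-1-/- (diamonds) and transgenic (squares) arrays, with a dashed line at -1. All 4 rows that include Klra3 lie between -2.75 and -2.26, and the row annotated to the Ly49A, Ly49D and Ly49G genes lies at 0.

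The NKR-P1 receptors are encoded by the Klrb1 genes, and some of them read Clec2 lectins. Of their rows, Klrb1b and Klrb1c differed in opposite directions. Klrb1b, the inhibitory receptor for the product of Clec2d, was at 5.73 on the wild type, 5.97 on the transgenic and 7.21 on the TCF-1-/- array. It was the 1 receptor row higher by 2-fold or more without TCF-1 (1.49, or 2.80-fold). Klrb1c, the activating receptor that carries the NK1.1 antigen, was at 5.76 on the wild type, 5.85 on the transgenic and 4.70 on the TCF-1-/- array. It was lower without TCF-1 by 2.08-fold (-1.06), and with each array centred on its median the difference was -0.93, under the 2-fold rule. Klrb1c was below the median level over annotated rows on all 3 arrays and Klrb1b on the wild type and transgenic arrays, so these folds are uncertain too. Among the Klr genes, both sit next to each other in the RefSeq gene order. Klrb1f, another NKR-P1 receptor, was at 6.94, 6.88 and 7.18 on the wild type, transgenic and TCF-1-/- arrays, within 2-fold throughout. Klrb1a, Klrb1 and the pseudogene Klrb1-ps1 had the same value on all 3 arrays (3.79, 4.93 and 5.01).

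Of the 5 rows of CD94 and the NKG2 receptors, 4 were below wild type on the TCF-1-/- array, each by less than 2-fold. Klrd1, which encodes CD94, the shared partner chain, was at 6.54 on the wild type, 6.37 on the transgenic and 5.96 on the TCF-1-/- array. Klrc1, the inhibitory NKG2A, was at 5.74, 5.57 and 5.15 in the same order. Both partner chains thus had their highest value on the wild type array and their lowest without TCF-1, with differences of -0.58 and -0.59 for the latter. Klrk1, the activating receptor NKG2D, took the same order with 6.29, 6.04 and 5.65, a difference of -0.64 without TCF-1. Klrc2, the activating NKG2C, was at 5.33 on the wild type array and 4.91 on both mutant arrays. Klrc3, NKG2E, was at 3.58 on the wild type and TCF-1-/- arrays and 3.37 on the transgenic array. None of these 5 rows reached the median level over annotated rows on any array, so the sizes of their differences are uncertain.

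Of the other families, Klre1 and its partner chains Klri1 and Klri2 were dim. Klre1 and Klrh1 each had a single value on all 3 arrays, and that of Klrh1 was 3.10. Klri1 was at 4.26, 4.14 and 4.09 and Klri2 at 4.70, 4.70 and 4.40 on the wild type, transgenic and TCF-1-/- arrays. Klrg1, an inhibitory receptor of mature NK and effector T cells that binds cadherins, was at 4.87 on the wild type and transgenic arrays and 4.90 on the TCF-1-/- array. Klrg2 was at 6.24, 6.24 and 6.39 in the same order. None of these 6 rows differed by 1.5-fold in any comparison.

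**Figure D3:**
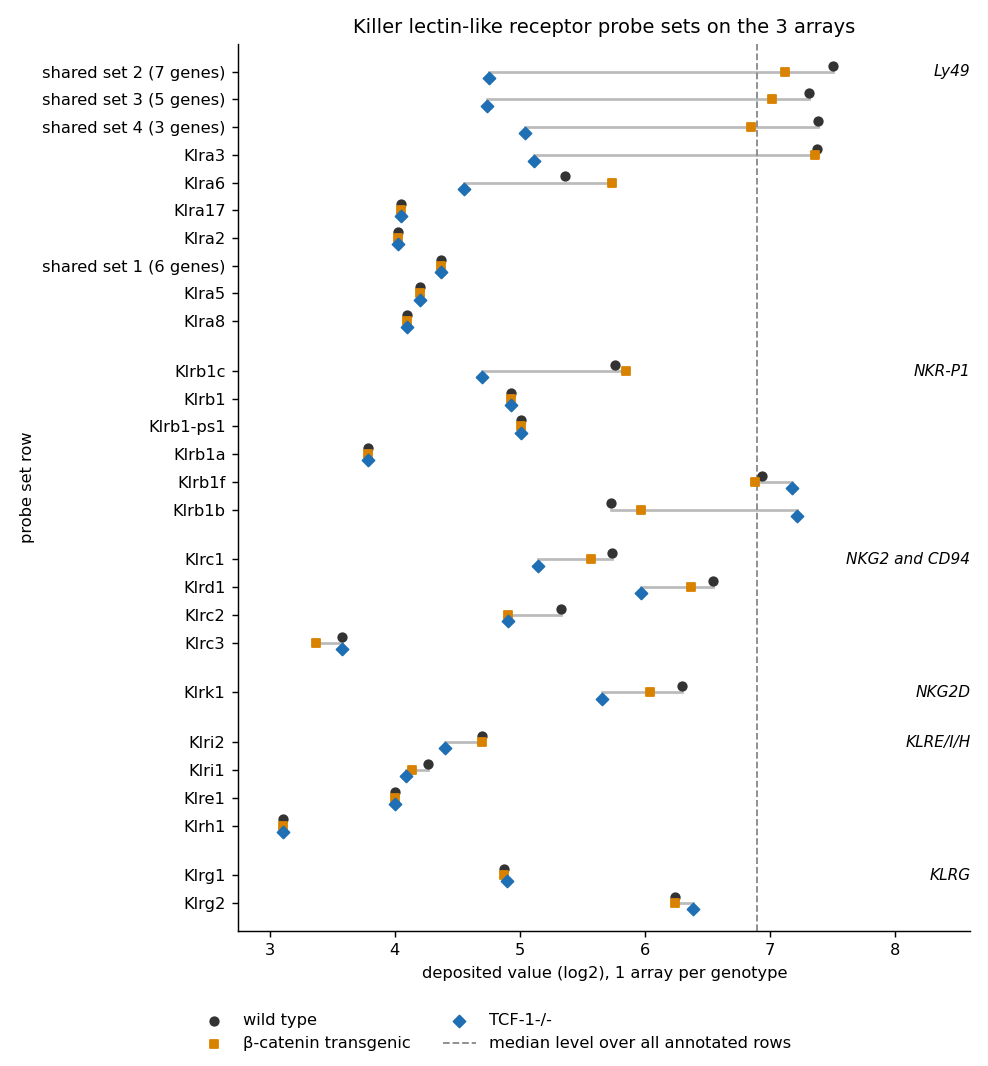
Deposited log2 values (x axis) of the 27 receptor rows on the wild type (circles), transgenic (squares) and TCF-1-/- (diamonds) arrays, 1 array each, grouped by receptor family, with small vertical offsets so that equal values can be seen. The dashed line is the median level over annotated rows (6.89), which 6 of the 27 rows reach on at least 1 array.

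Counted over the family, 12 of the 27 rows were below wild type on the TCF-1-/- array, 4 were above it and 11 had the same value, and the median difference was 0, as it was over all annotated rows. Centring each array on its median, which adds 0.13 to every difference in this comparison, puts 12 rows below and 15 above, since equal values then count as above. Removal of an intensity trend by loess puts 24 below and 3 above, so the direction of the small differences depends on the scaling. At 1.5-fold, 8 rows were lower and 1 was higher, where 6.89% and 4.04% of all annotated rows were. The 3 rows added at this threshold were Klra6, Klrk1 and Klrc1, of which Klrk1 and Klrc1 do not pass it after centring. Within the Ly49 rows 4 of 10 were lower by 2-fold or more and 0 higher, and all 4 list Klra3. Among the 17 rows of the other families 1 was lower and 1 higher. The 6 rows that reached the median level on any array were the 4 rows that list Klra3, Klrb1f and Klrb1b.

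**Figure D4:**
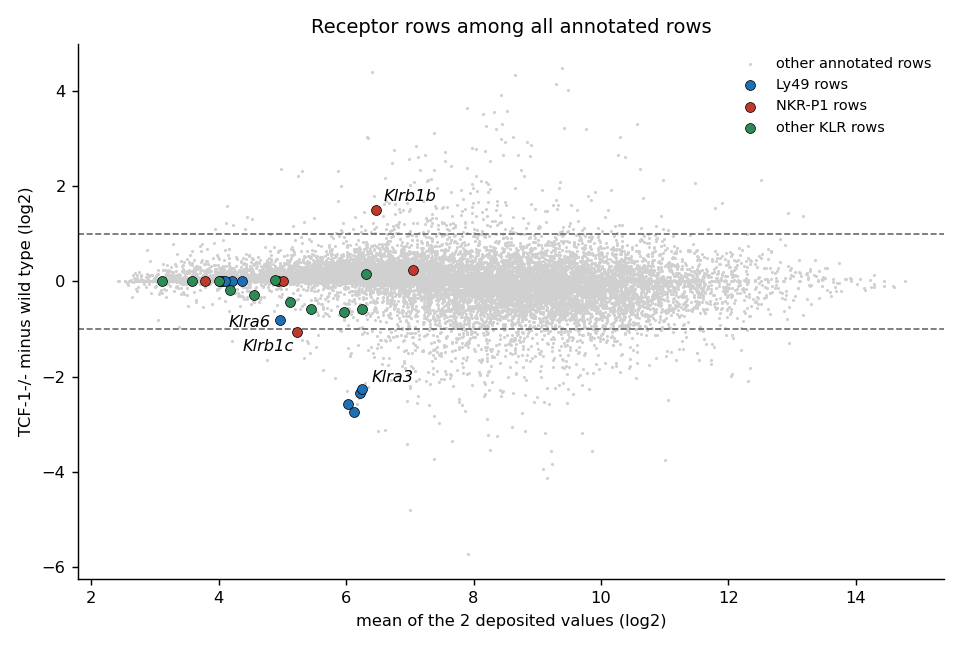
Difference of the TCF-1-/- from the wild type array (y axis, log2) against the mean of both values (x axis, log2) for all 20738 annotated rows, with receptor rows coloured by family and dashed lines at 2-fold. The 4 Ly49 rows between -2.75 and -2.26, Klrb1c at -1.06 and Klrb1b at 1.49 lie outside the dashed lines, and most other receptor rows lie at low levels near 0.

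The transgenic array showed no receptor row beyond 1.5-fold of wild type in either direction. Over all annotated rows, 0.174% were higher and 0.101% lower by 2-fold or more, and 0.511% and 0.675% by 1.5-fold or more, so a count of 0 of 27 is near the background. Of the 27 rows, 11 were below wild type, 3 were above it and 13 had the same value, and after centring, which adds 0.079 here, 9 were below and 18 above. The 3 rows above wild type were Klra6 (0.38), Klrb1b (0.24) and Klrb1c (0.09). The lowest after shared set 4 were Klrc2 (-0.42) and shared set 2.

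Set directly against the TCF-1-/- array, the transgenic array was higher by 2-fold or more in 6 of the 27 rows and lower in 1. Over all annotated rows these shares were 2.47% and 1.56%. This comparison shares an array with each of those above and is not a separate line of evidence. The 6 rows were the 4 that list Klra3 (1.81 to 2.37), Klra6 (1.19) and Klrb1c (1.15), and the lower row was Klrb1b (-1.25). Klra6 and Klrb1c did not reach the median level over annotated rows on any array, so their folds are uncertain. At 1.5-fold the counts were again 6 and 1, where 6.28% and 4.38% of all annotated rows passed.

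Markers of the cells known to carry these receptors were read beside them. Of 16 measured genes of NK and cytotoxic cells, 2 were higher and 0 lower by 2-fold or more on the TCF-1-/- array, with a median difference of 0.03. Over all annotated rows 1.34% were higher and 2.68% lower by that rule, which is the background for the lists below too. Gzma, a granzyme, was at 8.95 on the wild type, 8.54 on the transgenic and 11.60 on the TCF-1-/- array. Cd160, a receptor of NK and intraepithelial T cells, was at 6.22, 6.02 and 8.34 in the same order. These 2 genes were highest on the array on which the Klra3 rows were lowest. The other measured genes of the list were within 2-fold of wild type there, some above, some below and some equal. Ncr1, which defines NK cells, was at 4.67, 4.70 and 4.70, and Eomes, a factor of NK cells, was at 6.17 on all 3 arrays. Tbx21, the factor T-bet, was at 7.48, 7.36 and 6.97. The log2 values of this list summed to 115.4 on the wild type, 113.0 on the transgenic and 120.3 on the TCF-1-/- array. Gzma (2.65) and Cd160 (2.12) had the largest differences of the list between the TCF-1-/- and wild type arrays. A sum of log2 values is not an amount of RNA, and the part of these genes in the receptor values was not tested.

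Genes of other cell types that thymocyte RNA could include were read in the same way. All 5 measured genes of γδ T cells were higher on the TCF-1-/- array by 2-fold or more, with a median of 2.86. Cd163l1, a scavenger-type receptor of γδ T cells, was at 7.10, 7.26 and 10.13, and Blk, a kinase of B and γδ T cells, at 6.93, 6.74 and 9.93. Maf (2.86), Sox13 (1.95) and Il23r (1.08) were the others. Summed log2 values of this list were 34.6, 35.1 and 46.5 on the wild type, transgenic and TCF-1-/- arrays. Among 6 genes of invariant NKT cells, which carry NK1.1 and some Ly49 receptors, 1 was lower and 0 higher. It was Cd1d1, the molecule that selects these cells, at 8.74, 8.85 and 6.93, and it is also a gene of double-positive thymocytes. Zbtb16, the defining factor of these cells, was at 6.86 on all 3 arrays, and the list's values summed to 50.5, 49.4 and 48.4.

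Genes of CD4+CD8+ double-positive thymocytes, the main cells of a thymus, were present at high values, and 8 of the 9 measured were lower without TCF-1 by 2-fold or more (median -1.81). Their log2 values summed to 107.0 on the wild type, 107.4 on the transgenic and 90.4 on the TCF-1-/- array. In RNA taken from many cells together, fewer cells of a type and less RNA per cell cannot be told apart. The part of these cell types in the Ly49 and NKR-P1 differences was not tested. Age differed between all 3 mice, and Xist, transcribed from the inactive X chromosome, was at 12.49, 4.86 and 12.17 on the wild type, transgenic and TCF-1-/- arrays. In these data genotype cannot be told apart from age or, for the transgenic mouse, from sex-linked transcripts. Ly49 gene content also varies between inbred mouse strains, and strain cannot be told apart from genotype here.

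The adaptors and signalling partners of the receptors were all within 2-fold of wild type on both mutant arrays. Of 13 measured, 0 were lower and 0 higher by that rule, with median differences of 0 and 0.0040. Over all annotated rows 2.68% were lower and 1.34% higher without TCF-1, and 0.101% and 0.174% on the transgenic array. A count of 0 of 13 is thus near the background. Tyrobp, which encodes DAP12, was at 7.37 on the wild type, 7.45 on the transgenic and 7.65 on the TCF-1-/- array. Hcst, which encodes DAP10, the adaptor of NKG2D, was at 7.82, 7.82 and 7.07, a difference of -0.75 without TCF-1 beside the -0.64 of its receptor gene Klrk1. Ptpn6, which encodes SHP-1, was at 10.20, 9.94 and 10.34. Pik3r1, a subunit of phosphoinositide 3-kinase, was the 1 adaptor beyond 2-fold between the mutants, at 11.35 on the transgenic and 10.35 on the TCF-1-/- array, and after centring its difference was 0.95.

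Of the ligands, 12 of 20 listed genes had a row or a part in a shared row. Clec2d, the ligand of the Klrb1b product, was at 9.61 on the wild type, 9.19 on the transgenic and 8.06 on the TCF-1-/- array. Clec2d thus differed by -1.55 on the array on which its receptor gene Klrb1b differed by 1.49, and it was the 1 ligand row beyond 2-fold of wild type. Clec2i, a ligand of the NKR-P1F receptor that Klrb1f encodes, was at 9.55, 9.10 and 8.91. The MHC class I ligands are close copies and were measured by shared rows only. The row of H2-T23, which encodes Qa-1, and H2-T-ps was at 9.78, 9.83 and 9.62. The pair of rows shared by H2-K1, H2-D1 and LOC547349 were at 10.58, 10.38 and 10.71 and at 10.21, 9.70 and 10.52. No class I row was therefore beyond 1.5-fold of wild type on the TCF-1-/- array. Cdh1, the cadherin bound by KLRG1, was at 6.83, 6.67 and 7.77, a difference of 0.94 without TCF-1, which passes 2-fold after centring (1.07), and of -1.09 between the mutants.

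Other lectin-like genes of the NK gene complex, neighbours of the Klr genes, differed in both directions. Of 12 measured, 2 were lower and 1 higher by 2-fold or more without TCF-1, and 5 had the same value on the TCF-1-/- and wild type arrays. Besides Clec2d, Cd69, an early activation marker, was lower, at 10.40, 10.62 and 8.16. Clec12a, an inhibitory receptor of myeloid cells, was higher, at 6.76, 5.99 and 7.91. On the transgenic array 0 of the 12 were beyond 2-fold of wild type, where 0.174% of all annotated rows were higher and 0.101% lower. Clec12a had the largest difference (-0.77).

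**Figure D5:**
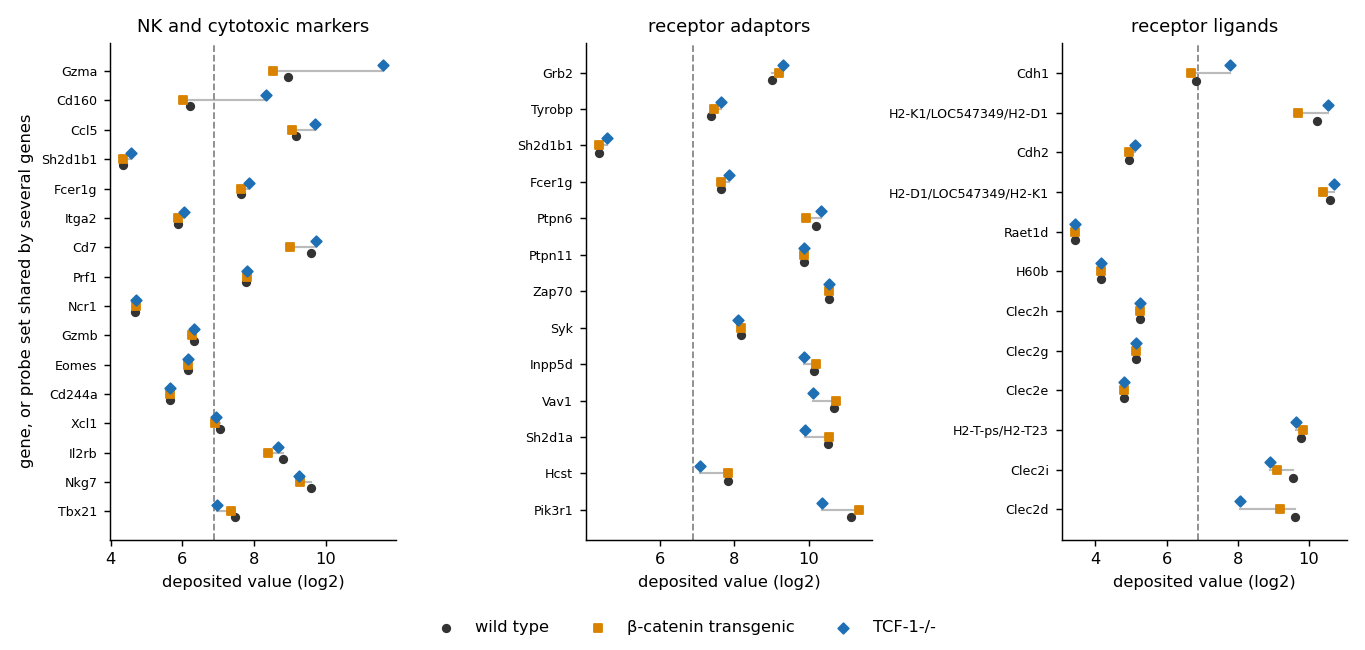
Deposited log2 values (x axis) of NK and cytotoxic markers, receptor adaptors and receptor ligands on the wild type (circles), transgenic (squares) and TCF-1-/- (diamonds) arrays, 1 array each, ordered by the difference of the TCF-1-/- from the wild type array. The dashed line is the median level over annotated rows, Gzma and Cd160 are the markers beyond 2-fold of wild type, and Clec2d is the ligand beyond it.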

How the data were processed

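Thymocyte RNA was hybridised to 1 whole-transcript array per genotype. The submitters' processing notes name RMA and Partek, so the deposited values (1.73 to 14.8) were taken as log2 values. For settings, log base and build nothing is stated in those notes. Of 35556 probe sets, the platform annotation names 23410, of which 21789 have 1 symbol and 1621 several. Probe sets with the same symbols were reduced to the one with the highest mean, which gave 20738 rows. No receptor row had a second probe set with the same symbols. All 32 receptor symbols were found in the GRCm38.p6 gene table. Promoters are from RefSeq. Proteins were not used here.

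Differences and a 2-fold rule of size were computed from the deposited normalization. The counting was checked on simulated rows with known shifts and small noise. That check does not bear on the equal values, dim rows or shared probe sets of these data. The number of arrays limits the precision. Every receptor row was named, those past 2-fold, of several genes or of high mean with each array's value; in other lists, genes past 2-fold and a few fixed ones. The members and lists were chosen with earlier results of these data known. Alternatives were thresholds, centring on the median of all probe sets, loess (span 0.3), a filter on dim rows, the mean of probe sets and leaving out shared rows. Python 3.11.15, NumPy 2.4.6, pandas 2.3.3, statsmodels 0.14.6 and matplotlib 3.10.9 were used.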

Additional observations from a re-analysis of the deposited data

How the results depend on the processing

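The differences of 2-fold or more of the 4 rows that list Klra3, of Klrb1b and of Klra6 kept their direction and their size class under centring and loess, the settings that can change the difference of a row. The exception was Klrb1c without TCF-1 (-0.93 after centring on medians of all probe sets, which shifts every difference by 0.13). Centring on annotated rows alone, whose medians run the other way, was not done. The mean of probe sets changes no receptor row, since each has 1 probe set, and the filters only drop rows. Without TCF-1, lower rows numbered 8 at 1.5-fold, and 2 with shared rows left out or with the Klra3 rows averaged. Higher rows numbered 0 at 3-fold. Between the mutants, higher rows numbered 3 with dim rows left out, with shared rows left out or with the Klra3 rows averaged, and lower rows 0 at 3-fold. The median difference, 0 in each comparison, was less stable. Without TCF-1 it was 0.13 after centring, -0.0255 after loess, -2.30 over the 6 rows that reach the median level on at least 1 of the arrays compared, and -0.58 with equal values left out. On the transgenic array it was 0.079 after centring, -0.30 with that filter and -0.17 without equal values. Between the mutants these were -0.0535, 2.24 and 0.39, and 0.0147 after loess. The medians under the filter show nothing about stability, since the rows that list Klra3 pass it only through an array on which they are high, and Klrb1b only through the TCF-1-/- array. Averaging and leaving out equal values were chosen after seeing the data. Where the set of rows was changed the count moved by construction, and otherwise the cause was not tested. No paired analysis was possible because each genotype has 1 array. Most receptor rows are dim, which limits what their differences mean.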
